A study of Mus musculus with 10 samples.

Results

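The genes described here serve the endoplasmic reticulum (ER), the compartment where secreted and membrane proteins are folded. They comprise 34 genes in 5 roles: 10 chaperones and co-chaperones, 7 disulfide and proline isomerases, 8 genes of ER-associated degradation (ERAD), 7 genes of protein entry and signal peptide removal, and 2 sensors of unfolded protein. Mzb1, a cofactor of antibody assembly, is counted with the isomerases. Members were listed by gene symbol, though the list was chosen with earlier results of these data known. All 34 were found among the 19937 genes that had a probe set with 1 symbol. For a gene with several such probe sets, the one with the highest mean was used. RNA came from J558, an established mouse myeloma line of plasma-cell type, transduced with the retroviral vector MSCV-PIG, which also carries puromycin resistance and GFP behind an IRES. The 3 control arrays had the empty vector, another 3 arrays had the vector with wild-type Pax5, and 4 had it with Pax5 G183S, a glycine-to-serine change. All cultures, controls included, went through puromycin selection lasting 5 to 7 days and a sort on GFP and IgM, so each group is a selected population of 1 cell line in which Pax5 was supplied from a vector. The series' design text calls the replicates independent. Values are log2 expression per probe set, and a difference of 1 is a doubling.

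Cells that secrete antibody carry a heavy load of newly made protein. In the ER, chaperones hold unfinished chains, isomerases form disulfide bonds, and chains that fail to fold are drawn back into the cytosol and degraded. When unfolded protein accumulates, membrane sensors including Ern1 (the kinase and RNase IRE1 alpha) and Atf6 switch on a transcription programme, the unfolded protein response, whose targets include many of the genes listed here. In plasma cells this programme is driven in large part by Xbp1, the factor whose transcript Ern1 splices. Pax5, the B-lineage factor that is normally silent in plasma cells, represses Xbp1 in B cells, which is the setting in which ER genes are of interest after Pax5 is put back.

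Several of these genes share a short promoter element. Many are targets of the unfolded protein response, so a high share of its elements among them is not an independent result. The ER stress element (ERSE) was searched as CCAAT, then 9 bases, then CCACG. ERSE-II was searched as ATTGG, then 1 base, then CCACG, and the unfolded protein response element (UPRE) as TGACGTGG. Both strands were read. The motifs overlap in part, since ERSE and ERSE-II end in the same CCACG and the UPRE holds its reverse complement, CGTGG. RefSeq promoter windows of GRCm38.p6, from 250 bases before to 50 after the gene start, were at hand for 26 of the 34 members. The other 8 genes were Hyou1, Manf, Mzb1, Derl1, Sec61a1, Sec11c, Spcs3 and Atf6. A gene with several windows was counted once, as a match if any of them held the element. An ERSE occurred in 9 of the 26 members (34.6%), against 37 of 27025 genes in the table (0.137%). An ERSE-II occurred in 1 (3.85%), against 0.0444% of all genes, and a UPRE in 1 (3.85%), against 0.714%. In all, 11 of the 26 (42.3%) held at least 1 of the 3 elements, against 239 of 27025 (0.884%). A match is a match of letters and not a measured binding site.

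The 11 stretches are shown because they are the sequence feature that links chaperone, isomerase and ERAD genes. Each is read 5′ to 3′ on the strand of its gene, with 10 bases on either side of the match, and capitals mark the fixed letters of the element. The first 8 lines belong to folding genes and the last 3 to ERAD genes.
Hspa5 (ERSE, chr2:34772015-34772053, plus strand): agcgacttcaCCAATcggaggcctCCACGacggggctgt
Hsp90b1 (2 ERSE, chr10:86705523-86705666, minus strand): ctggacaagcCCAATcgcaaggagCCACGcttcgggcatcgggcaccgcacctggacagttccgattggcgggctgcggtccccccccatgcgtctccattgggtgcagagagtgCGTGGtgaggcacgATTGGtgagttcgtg
Dnajc3 (ERSE, chr14:118937817-118937855, plus strand): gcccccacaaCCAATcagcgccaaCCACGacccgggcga
Calr (ERSE, chr8:84847065-84847103, minus strand): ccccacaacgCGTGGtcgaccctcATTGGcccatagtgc
Canx (ERSE, chr11:50325790-50325828, minus strand): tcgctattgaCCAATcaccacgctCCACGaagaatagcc
Creld2 (ERSE, chr15:88819510-88819548, plus strand): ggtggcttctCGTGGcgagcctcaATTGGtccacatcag
Pdia6 (ERSE, chr12:17266481-17266519, plus strand): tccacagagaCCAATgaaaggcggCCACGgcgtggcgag
Txndc5 (UPRE, chr13:38528035-38528062, minus strand): gcctcgccgcTGACGTGGcgctagccgc
Herpud1 (ERSE-II, chr8:94386367-94386397, plus strand): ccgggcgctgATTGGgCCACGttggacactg
Syvn1 (ERSE, chr19:6046522-6046560, plus strand): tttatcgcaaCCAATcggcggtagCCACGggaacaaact
Derl3 (ERSE, chr10:75893232-75893270, plus strand): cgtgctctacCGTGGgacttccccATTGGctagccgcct
In Calr, Creld2, Derl3 and the second match of Hsp90b1 the element reads on the opposite strand, which is why CGTGG comes first. The leftmost base of a match lay between 212 bases (Hsp90b1) and 44 bases (Syvn1) before the gene start.

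**Figure D1:**
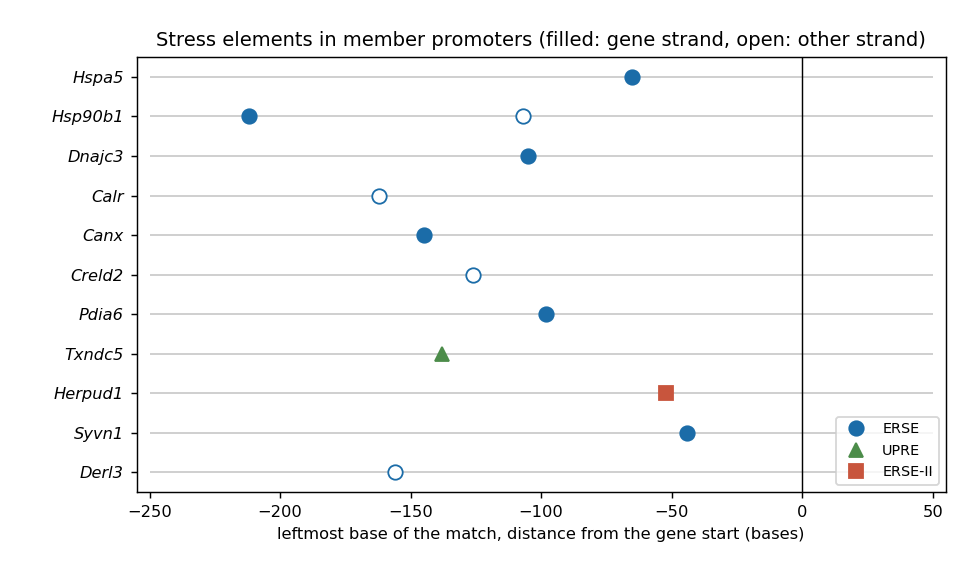
Positions of the elements in the 11 member promoters that hold one, in bases from the gene start (vertical line at 0). Circles are ERSE, the triangle is UPRE and the square is ERSE-II; filled symbols lie on the gene's strand and open ones on the other. Every match sits before the start, between positions -212 and -44.

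The samples carried the markers of their labelled cell type. All 9 measured plasma-cell markers had a mean above 7.23 log2 units, the median of all gene means, whereas 0 of 7 T-cell, 1 of 8 myeloid (Cd68), 0 of 4 erythroid and 4 of 8 stromal markers (Col1a1, Col1a2, Col3a1 and Cdh5) did. Pax5 read higher in every Pax5 array than in every control array, by 3.29 ± 0.24 (SE) with wild type and 3.0 ± 0.23 with G183S (limma, adjusted p = 0.001 for both; 2.92 ± 0.24 and adjusted p = 0.0012 with G183S when its replicate 1 is left out). Array medians over all genes lay between 7.17 and 7.28. The mean over the plasma-cell markers ranged from 11.64 to 11.83 per array with empty vector, 11.44 to 11.90 with wild type and 10.95 to 11.82 with G183S. In RNA from a whole sorted population, fewer cells of a type and less RNA per cell cannot be told apart.

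One array stood apart among these genes. G183S replicate 1 fell outside the range of the other 3 G183S arrays for 25 of 34 members (73.5%), above it for 11 and below it for 14, while the same held for 61.4% of all genes. The shares for G183S replicates 2, 3 and 4 were 50%, 50% and 26.5% of members, against 40.3%, 55.2% and 42.9% of all genes. Were the 4 arrays alike, each would be highest or lowest for 50% of genes on average. G183S replicate 1 also lay within the range of the 3 wild-type arrays for 26 members (76.5%), against 57.4% of all genes. Its Pax5 level of 10.22 was inside the span of the other G183S arrays (9.38 to 10.36). Differences that involve G183S and carry an adjusted p are therefore given with and without it where a member is described singly, and values given alone are from all arrays. Replicate 1 was singled out on these same values, so calls made without it follow from a choice made on the data and are descriptive.

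ER genes were strongly expressed in all 3 groups. In each group 32 of the 34 had a mean above 10 log2 units, all but Fkbp11 and Sec61b, where the median over all genes was 7.22 to 7.24. The median SD between arrays was 0.077 over the members with empty vector, 0.147 with wild type and 0.126 with G183S. Genes of like brightness had 0.083, 0.155 and 0.170, so the members were about as steady as other well-expressed genes. Member by member, the differences between group means ran from -0.43 to 0.44 for wild type against empty vector, from -0.51 to 0.24 for G183S against empty vector, and from -0.47 to 0.45 for G183S against wild type.

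No member passed limma's adjusted p of 0.05 in any comparison. Between wild type and empty vector 0 of 34 passed, where 1.88% of all genes did (374 of 19937). For G183S against empty vector 0 of 34 passed, where 0.311% of all genes did (62), and for G183S against wild type the background itself was 0.0% (0 genes). An ordinary linear model without moderated variances also called 0 members in each comparison. That model called only 4, 6 and 1 of all 19937 genes, in the order above. Limma with array weights called 3 higher and 4 lower with wild type and 3 higher and 2 lower with G183S. For G183S against wild type it called 5 higher and 3 lower. Array weights also called 12.9%, 7.27% and 13.8% of all genes in these comparisons. At an unadjusted p under 0.05 there were 8 members (23.5%) between wild type and empty vector, 5 (14.7%) between G183S and empty vector and 5 (14.7%) between G183S and wild type. Over all genes the corresponding shares were 15.9%, 11.3% and 9.48%. The first 2 comparisons share their control arrays, so similar values in them are not independent.

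Counting arrays in place of fitting a model gave the same scale. Wild type and empty vector did not overlap for 8 members (23.5%), which is near the 24.0% of all genes. Of these, 4 were higher (Canx, Sel1l, Spcs2 and Spcs3; 11.5% of all genes were) and 4 lower (Dnajc3, Herpud1, Derl3 and Ern1; 12.5% of all genes were). G183S and empty vector did not overlap for 6 members (17.6%, against 11.6% of all genes), with Canx and Spcs2 higher (background 5.02%) and Pdia4, Herpud1, Edem2 and Ern1 lower (background 6.56%). G183S and wild type were separate for 1 member, Pdia3, which was higher (2.94%; over all genes 6.5%, of which 2.33% higher and 4.17% lower).

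Without G183S replicate 1, limma's calls were more numerous in every comparison. Wild type against empty vector then had 2 members, Herpud1 and Derl3, both lower (5.88%, against 5.18% of all genes). That comparison uses none of the G183S arrays for its means, and only the shared estimate of spread was changed. G183S against empty vector had 1, Derl3, lower (2.94%, against 1.48%). G183S against wild type had 5 (14.7%, against 5.58%): Dnajb9, Dnajc3, Herpud1 and Derl2 were higher and Edem1 lower.

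**Figure D2:**
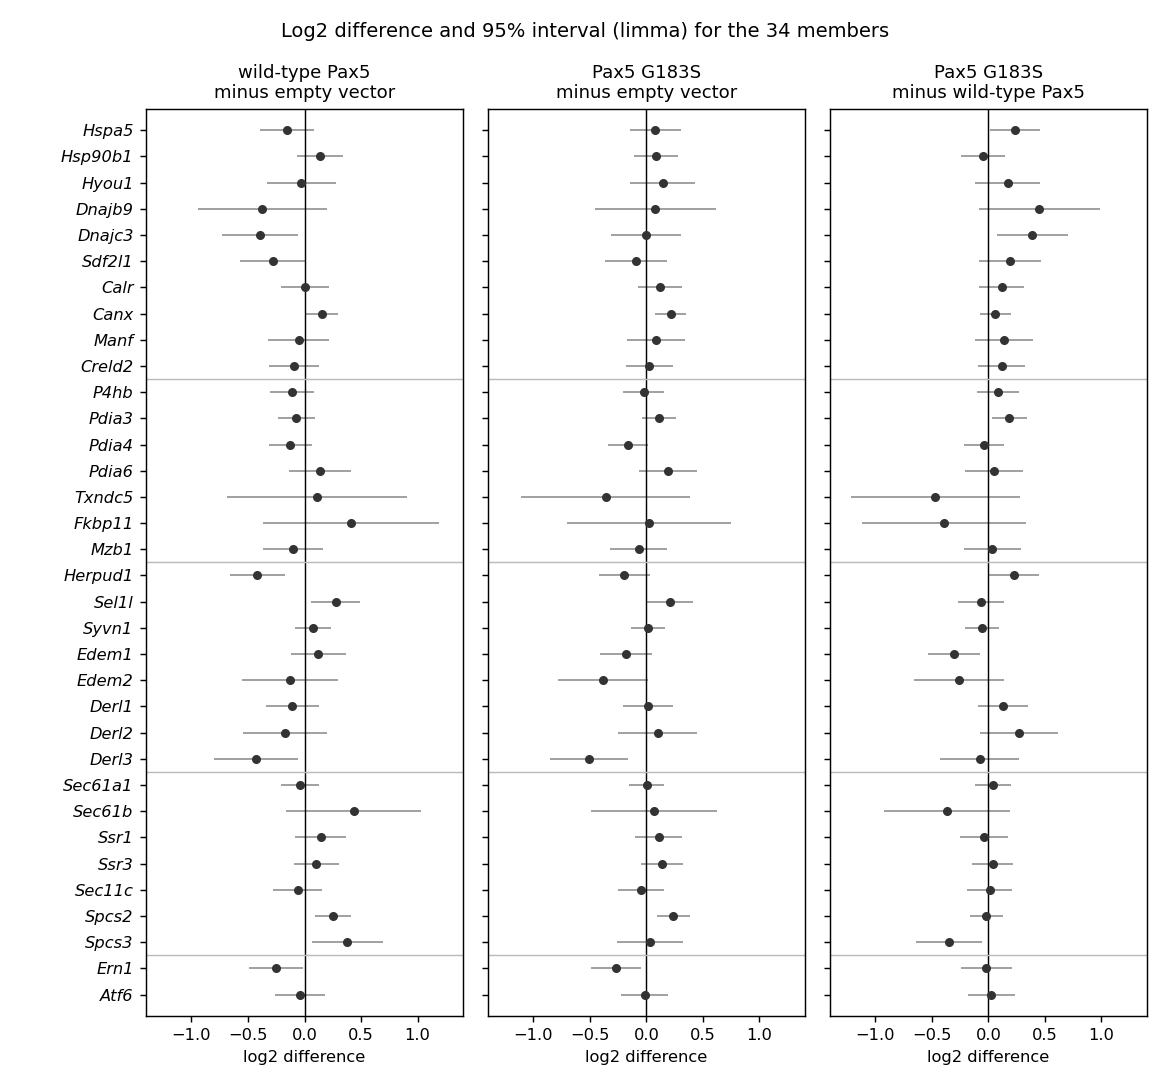
Log2 difference of each member in the 3 comparisons, in order of role from chaperones (top) to sensors (bottom), with limma's 95% interval as a line. Most intervals cross 0; of the 34, those lying inside ±0.5 number 23 (wild type against empty vector), 28 (G183S against empty vector) and 25 (G183S against wild type).

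As a group, the members were centred near 0. Their median difference was -0.05 for wild type against empty vector (14 higher, 20 lower; all genes 0.01), 0.02 for G183S against empty vector (21 higher, 13 lower; all genes -0.00) and 0.04 for G183S against wild type (20 higher, 14 lower; all genes -0.02). Genes of like brightness, with a mean between the lowest and highest member, had medians of -0.02, -0.01 and 0.02 in the same order. The 95% interval lay within ±1, a doubling or halving, for 32, 33 and 32 members respectively. Intervals that passed it were those of Fkbp11 (up to 1.19) and Sec61b (up to 1.03) between wild type and empty vector, Txndc5 (down to -1.11) between G183S and empty vector, and Txndc5 (down to -1.21) and Fkbp11 (down to -1.12) between G183S and wild type. For the other genes a change of 1 log2 unit lay outside the interval.

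Chaperones of the ER lumen and membrane had the same sign most often in the comparison of the mutant with wild type. In that comparison 9 of 10 were higher with G183S, with a median of 0.16, and 0 passed. Against empty vector the medians were -0.07 with wild type (3 higher, 7 lower) and 0.08 with G183S (8 higher, 2 lower). They also varied within groups: the median of the 10 differed from the empty-vector mean by 0.14, -0.03 and -0.13 in the control arrays themselves, by 0.15, -0.22 and -0.10 in the wild-type arrays and by -0.00, 0.06, 0.23 and 0.12 in the G183S arrays.

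Hspa5 encodes BiP, the central Hsp70-type chaperone of the ER and the partner that keeps the stress sensors inactive. Its probe set (10471586) read 13.51, 13.29 and 13.21 with empty vector, 13.16, 13.12 and 13.27 with wild type, and 13.20, 13.46, 13.55 and 13.46 with G183S. G183S replicates 2, 3 and 4 exceeded all wild-type arrays, and replicate 1 lay among them. The difference between G183S and wild type was 0.24 ± 0.10 (SE; limma adjusted p = 0.513), and 0.31 ± 0.09 without G183S replicate 1 (limma adjusted p = 0.075).

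Dnajb9 and Dnajc3 are co-chaperones with a J domain that act with BiP. Dnajb9 (10400137) read 12.50, 12.08 and 12.03 with empty vector, 11.59, 11.79 and 12.11 with wild type, and 11.61, 12.43, 12.68 and 12.42 with G183S. Its mean was 12.20 ± 0.26 (SD, n = 3), 11.83 ± 0.26 (n = 3) and 12.28 ± 0.47 (n = 4), and the SD of the mutant group was 0.15 without replicate 1, which sat with the lowest wild-type array. G183S exceeded wild type by 0.45 ± 0.24 (SE; limma adjusted p = 0.555), and by 0.68 ± 0.16 without replicate 1, which then passed (limma adjusted p = 0.0418).

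For Dnajc3 (10417034) the values were 11.00, 10.69 and 10.59 with empty vector, 10.34, 10.21 and 10.54 with wild type, and 10.45, 10.79, 10.95 and 10.83 with G183S. All 3 wild-type arrays lay below all 3 controls, while the mutant arrays other than replicate 1 lay within the control range. The difference was -0.39 ± 0.15 (SE; limma adjusted p = 0.230) for wild type against empty vector and 0.39 ± 0.14 (adjusted p = 0.499) for G183S against wild type. Without replicate 1 the latter was 0.49 ± 0.12 and passed (limma adjusted p = 0.0484). Between G183S and empty vector the difference was -0.00 ± 0.14.

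Canx, the membrane-bound lectin chaperone of newly made glycoproteins, was the chaperone with separate groups in both comparisons with the controls. It read 12.80, 12.67 and 12.64 with empty vector, 12.89, 12.86 and 12.83 with wild type, and 12.89, 12.92, 13.00 and 12.88 with G183S. Every Pax5 array was above every control array, though the lowest wild-type array only just passed the highest control. The difference was 0.15 ± 0.07 (SE; limma adjusted p = 0.285) with wild type and 0.22 ± 0.06 (limma adjusted p = 0.166; 0.23 and adjusted p = 0.133 without replicate 1) with G183S. Its soluble counterpart Calr did not separate: wild type differed from empty vector by 0.00 ± 0.09 and G183S by 0.12 ± 0.09.

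The remaining chaperones had overlapping groups. Hsp90b1, the ER member of the Hsp90 family, differed by 0.14 with wild type and 0.09 with G183S against empty vector. Hyou1, a large relative of Hsp70 that recharges BiP with nucleotide, differed by -0.03 and 0.14. Sdf2l1, a partner of BiP complexes, differed by -0.28 ± 0.13 (SE) and -0.09 ± 0.12. Manf and Creld2, small ER proteins made under ER stress, differed by -0.05 and -0.09 with wild type and by 0.09 and 0.02 with G183S. The largest of these, that of Sdf2l1 with wild type, had an unadjusted p of 0.061.

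**Figure D3:**
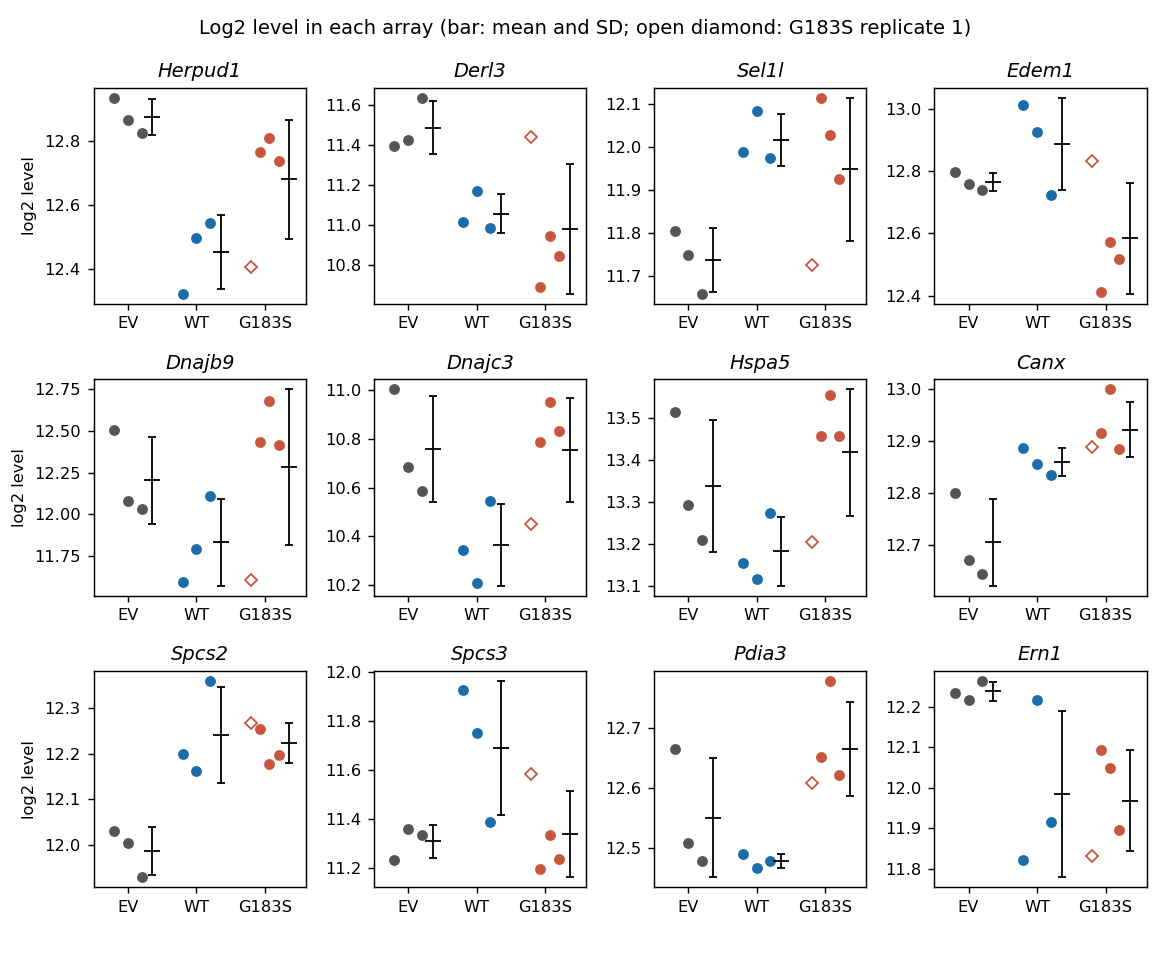
Log2 level on each array for 12 members, chosen among those named in the text with the smallest p or with separate groups. Dots are arrays, the bar is the mean and SD per group, and the open diamond is G183S replicate 1, which lies with the wild-type arrays for Herpud1, Dnajb9, Dnajc3 and Hspa5 and with the empty-vector arrays for Derl3 and Sel1l. Each panel has its own axis, which does not start at 0.

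The 7 genes listed as isomerases, Mzb1 among them, split into steady and variable genes. Disulfide isomerases P4hb, Pdia3, Pdia4 and Pdia6 had differences between -0.16 and 0.19 in all 3 comparisons. Pdia3, which folds glycoproteins held by Canx and Calr, was the 1 member whose G183S and wild-type arrays were fully separate: 12.61, 12.65, 12.78 and 12.62 against 12.49, 12.47 and 12.48. The wild-type arrays were nearly equal (SD 0.01), and the difference was 0.19 ± 0.07 (SE; limma adjusted p = 0.499; without G183S replicate 1, 0.21 and adjusted p = 0.136). The controls (12.66, 12.51 and 12.48) spanned both groups. Pdia4 read below every control on all 4 G183S arrays (12.70, 12.53, 12.75 and 12.53 against 12.79, 12.82 and 12.76), a difference of -0.16 ± 0.08 (limma adjusted p = 0.489; -0.19 and adjusted p = 0.324 without replicate 1). A second Pdia4 probe set, dimmer and not used, had means of 7.02, 7.02 and 7.14 in the 3 groups and so differed from empty vector in the other direction with G183S.

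Txndc5 and Fkbp11, a disulfide isomerase and a proline isomerase that are both abundant in plasma cells, were the members that varied most. Txndc5 read 11.86, 11.80 and 11.97 with empty vector, 12.29, 12.25 and 11.41 with wild type, and 12.46, 11.25, 10.92 and 11.44 with G183S. Fkbp11 read 9.01, 9.12 and 9.03 with empty vector, 10.02, 9.45 and 8.93 with wild type, and 9.95, 8.50, 8.87 and 8.98 with G183S. In both genes wild-type replicates 1 and 2 and G183S replicate 1 were high, and the other Pax5 arrays were below the lowest control. The SD was therefore 0.50 and 0.67 for Txndc5 in the Pax5 groups, against 0.09 in the controls, and 0.55 and 0.62 for Fkbp11, against 0.06. G183S minus wild type was -0.47 ± 0.33 (SE; limma adjusted p = 0.644) for Txndc5 and -0.39 ± 0.33 (adjusted p = 0.691) for Fkbp11. Without G183S replicate 1 these values were -0.78 ± 0.22 (adjusted p = 0.069) and -0.68 ± 0.23 (adjusted p = 0.116). Against empty vector, Txndc5 had -0.36 ± 0.33 with G183S (adjusted p = 0.801), and -0.68 ± 0.22 without that array (adjusted p = 0.158). Mzb1, a B-cell and plasma-cell cofactor of antibody assembly, differed by -0.10, -0.07 and 0.03 in the 3 comparisons.

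ERAD genes included the lowest values against the controls. Their medians were -0.12 with wild type and -0.08 with G183S against empty vector and -0.06 for G183S against wild type, with members on both sides of 0 in each. Herpud1, a membrane scaffold of the retrotranslocation complex and a known target of the unfolded protein response, had the smallest adjusted p of any member. Its probe set (10574087) read 12.93, 12.87 and 12.82 with empty vector, 12.32, 12.50 and 12.54 with wild type, and 12.41, 12.77, 12.81 and 12.74 with G183S. The group means were 12.87 ± 0.06, 12.45 ± 0.12 and 12.68 ± 0.18 (SD, n = 3, 3 and 4), and every Pax5 array was below every control.

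Wild type differed from empty vector in Herpud1 by -0.42 ± 0.11 (SE), or 0.748-fold, which did not pass in the fit of all arrays (limma adjusted p = 0.0893). It passed when G183S replicate 1 was left out (SE 0.075, limma adjusted p = 0.0165) and when the G183S group was left out of the fit altogether (adjusted p = 0.0483). For G183S the difference from empty vector was -0.19 ± 0.10 (adjusted p = 0.537; -0.10 and adjusted p = 0.590 without replicate 1), and from wild type 0.22 ± 0.10 (adjusted p = 0.526; 0.32 ± 0.075 and adjusted p = 0.0436 without replicate 1).

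With all arrays, Derl3 had the largest difference of any member from the controls with G183S; without replicate 1 that of Txndc5 was larger. Derl3 is a derlin, a membrane component of the retrotranslocation channel that is abundant in secretory cells. Its values (10364093) were 11.39, 11.43 and 11.64 with empty vector, 11.01, 11.17 and 10.98 with wild type, and 11.44, 10.69, 10.95 and 10.84 with G183S. All Pax5 arrays but G183S replicate 1 lay below the lowest control. Differences from empty vector were -0.43 ± 0.17 (SE; limma adjusted p = 0.240) with wild type and -0.51 ± 0.16 (adjusted p = 0.200) with G183S. Leaving out replicate 1 gave -0.43 ± 0.096 (adjusted p = 0.0353) and -0.66 ± 0.096 (adjusted p = 0.0186). For its relatives the same differences were -0.11 and 0.02 (Derl1) and -0.17 and 0.10 (Derl2). Derl2 was the other derlin called without G183S replicate 1, higher by 0.43 ± 0.095 than with wild type (adjusted p = 0.0378; 0.27 ± 0.16 and adjusted p = 0.579 with all arrays).

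Sel1l and Syvn1 form the core of the main ERAD ubiquitin ligase, with Sel1l as adaptor and Syvn1 as the ligase. Sel1l read 11.81, 11.75 and 11.66 with empty vector, 11.99, 12.08 and 11.97 with wild type, and 11.73, 12.11, 12.03 and 11.92 with G183S. All Pax5 arrays except G183S replicate 1 were above the controls. The difference was 0.28 ± 0.10 (SE; limma adjusted p = 0.193) with wild type and 0.21 ± 0.09 (adjusted p = 0.423) with G183S, or 0.28 ± 0.075 without replicate 1 (adjusted p = 0.094). Syvn1 differed by 0.07 ± 0.07 and 0.01 ± 0.07.

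Edem1 and Edem2 trim mannose from misfolded glycoproteins and so mark them for disposal. Edem1 read 12.80, 12.76 and 12.74 with empty vector, 13.01, 12.93 and 12.72 with wild type, and 12.83, 12.41, 12.57 and 12.52 with G183S. G183S replicates 2, 3 and 4 were below all other arrays, and replicate 1 was not. Between G183S and wild type the difference was -0.30 ± 0.10 (SE; limma adjusted p = 0.499), the smallest p of any member in that comparison, and -0.39 ± 0.085 without replicate 1 (adjusted p = 0.0365). Edem2 read 11.44, 11.54 and 11.52 with empty vector and 11.42, 10.87, 11.06 and 11.11 with G183S, a separation without overlap (-0.39 ± 0.18, adjusted p = 0.462; -0.49 and adjusted p = 0.187 without replicate 1). Its wild-type arrays spread from 10.99 to 11.80 and spanned both groups.

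**Figure D4:**
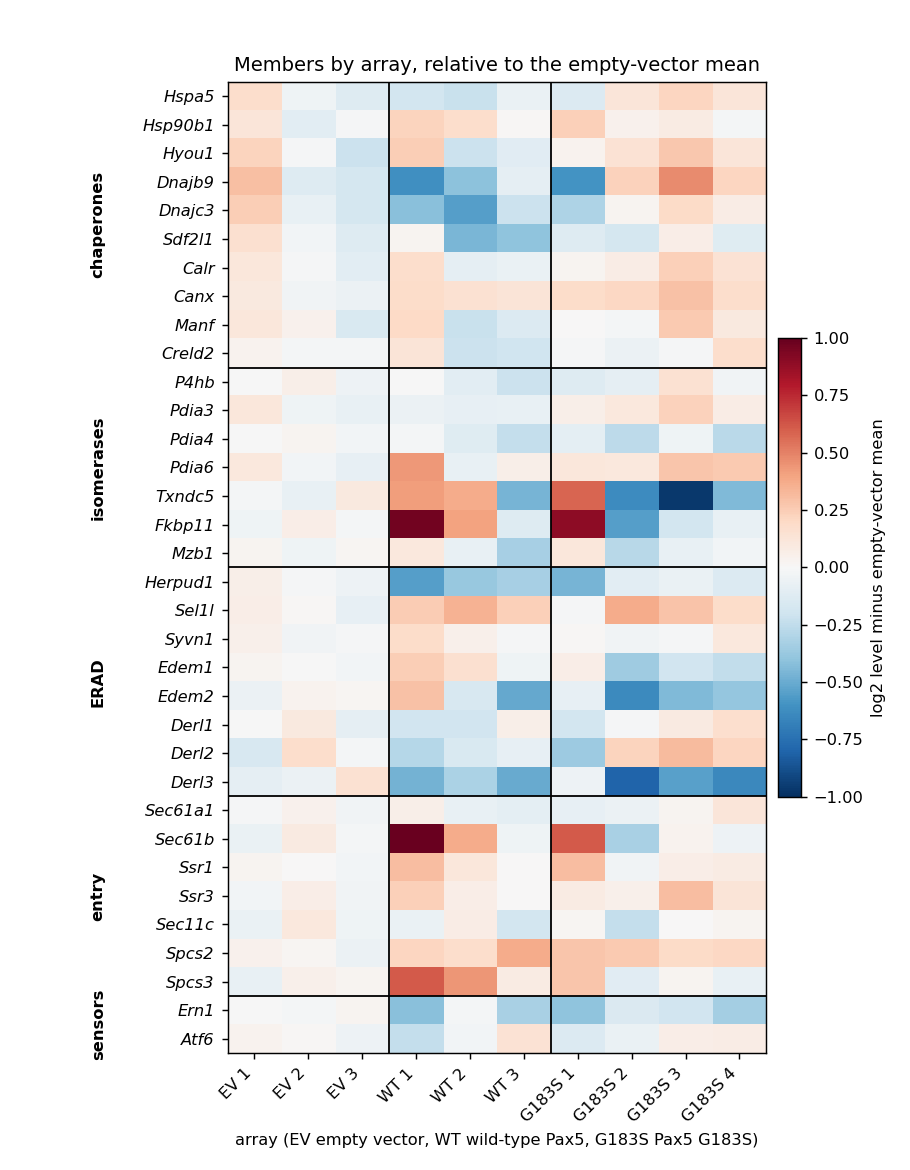
Each of the 34 members (rows, by role) on each of the 10 arrays (columns), as the log2 level minus the gene's mean over the empty-vector arrays; red is higher and blue lower. Dnajb9 and Dnajc3 are blue in the wild-type arrays and in G183S replicate 1, Txndc5, Fkbp11 and Sec61b are red in wild-type replicates 1 and 2 and G183S replicate 1, and Spcs2 and Canx are red on all Pax5 arrays.

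Genes of protein entry had the highest median with wild type, 0.14 (5 higher, 2 lower), against 0.07 with G183S. Spcs2 and Spcs3 are non-catalytic subunits of the signal peptidase, which removes the leader from chains entering the ER. Spcs2 (10565846) read 12.03, 12.00 and 11.93 with empty vector, 12.20, 12.16 and 12.36 with wild type, and 12.27, 12.25, 12.18 and 12.20 with G183S. Both Pax5 groups lay above the controls without overlap, by 0.25 ± 0.07 (SE; limma adjusted p = 0.108) and 0.24 ± 0.07 (adjusted p = 0.160; 0.22 and adjusted p = 0.162 without replicate 1), and G183S minus wild type was -0.02 ± 0.07.

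Spcs3 differed in its pattern. It read 11.23, 11.36 and 11.34 with empty vector, 11.93, 11.75 and 11.39 with wild type, and 11.59, 11.20, 11.33 and 11.24 with G183S. Wild-type arrays were above the controls, though wild-type replicate 3 only narrowly, whereas the mutant arrays other than replicate 1 lay close to the controls. The difference was 0.38 ± 0.14 (SE; limma adjusted p = 0.217) for wild type against empty vector, 0.03 ± 0.13 (adjusted p = 0.980) for G183S against empty vector and -0.35 ± 0.13 (adjusted p = 0.508) for G183S against wild type. Without replicate 1 the latter values were -0.05 (adjusted p = 0.902) and -0.43 ± 0.12 (adjusted p = 0.069). Sec11c, a catalytic subunit of the same peptidase, differed by -0.06 and -0.05 from empty vector.

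Sec61a1 and Sec61b encode the pore and a small subunit of the translocon. Sec61a1 was among the steadiest members, with differences of -0.04, 0.00 and 0.04 and a standard error of 0.07. Sec61b read 9.33, 9.49 and 9.38 with empty vector, 10.39, 9.77 and 9.36 with wild type, and 10.01, 9.08, 9.44 and 9.35 with G183S, so wild-type replicate 1 and G183S replicate 1 stood above the rest. The difference with wild type was 0.44 ± 0.27 (SE; limma adjusted p = 0.476), the largest positive value of any member in that comparison. The 2 Sec61b probe sets not used gave 0.21 and 0.45. Ssr1 and Ssr3, subunits of the translocon-associated protein complex, differed by 0.14 and 0.10 with wild type and by 0.11 and 0.14 with G183S.

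Of the sensors, Ern1 was lower in both Pax5 groups and Atf6 was level. Ern1 read 12.23, 12.22 and 12.26 with empty vector, 11.82, 12.22 and 11.91 with wild type, and 11.83, 12.09, 12.05 and 11.90 with G183S. The controls were close together (SD 0.02), and wild-type replicate 2 lay just under the lowest of them. Differences were -0.25 ± 0.11 (SE; limma adjusted p = 0.285) and -0.27 ± 0.10 (adjusted p = 0.324; -0.22 and adjusted p = 0.331 without replicate 1). Atf6 differed by -0.04 ± 0.10 and -0.01 ± 0.09.

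The transcript of Xbp1, the factor that links Ern1 to many of these genes, was not called. It read 12.94, 13.04 and 13.06 with empty vector, 12.93, 12.88 and 12.53 with wild type, and 13.03, 12.42, 12.69 and 12.59 with G183S. Every wild-type array lay below the lowest control, replicate 1 narrowly and replicate 3 the furthest (difference of means -0.23 ± 0.15 SE, limma adjusted p = 0.506). Of the G183S arrays 3 of 4 lay below the controls (-0.33 ± 0.14, adjusted p = 0.417; -0.45 ± 0.11 without replicate 1, adjusted p = 0.08). These probe-set values do not separate spliced from unspliced Xbp1.

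Members with and without an ERSE were set side by side. The 9 members with an exact ERSE in the promoter window had median differences of 0.00, 0.08 and 0.06 in the 3 comparisons. The 17 members with a window but no ERSE had -0.07, 0.02 and -0.02. These 17 include Herpud1, which holds an ERSE-II, and Txndc5, which holds a UPRE. The median size of the difference, whatever its sign, was 0.14, 0.088 and 0.077 with an ERSE and 0.17, 0.14 and 0.19 without. These groups were not compared by a test. Among the former, Dnajc3 and Derl3 were the lowest with wild type (-0.39 and -0.43) and Canx the highest (0.15). Over all genes 37 promoters held an ERSE and 21 of those genes were measured, 12 of them not members. Of the 21, only Ero1b passed, in wild type against empty vector alone, where 1.88% of all genes passed.

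Ero1b belongs to a wider list of 25 further ER folding enzymes and co-chaperones. It was the single gene of that list to pass in any comparison with all arrays (wild type against empty vector, 1.88% of all genes). It is an oxidase that recharges disulfide isomerases. Its values were 9.12, 9.10 and 8.95 with empty vector, 9.65, 9.73 and 10.26 with wild type, and 9.79, 9.48, 9.52 and 9.52 with G183S. It rose with wild type by 0.82 ± 0.15 (SE), or 1.77-fold (limma adjusted p = 0.0319), and read 0.52 ± 0.14 higher with G183S (adjusted p = 0.153; 0.45 and adjusted p = 0.145 without replicate 1). The call was lost without empty-vector replicate 1, 2 or 3 (adjusted p = 0.0789, 0.130 and 0.135), wild-type replicate 2 (0.0549) or G183S replicate 2 or 4 (0.0520 and 0.0538). Its close relative Ero1a differed the other way, by -0.47 ± 0.11 (adjusted p = 0.062; called without G183S replicate 1, adjusted p = 0.0299), with all wild-type arrays below the controls. Nucb2, a calcium-binding protein of the secretory pathway, read 2.64 ± 0.53 higher with G183S (adjusted p = 0.076; 2.71 and adjusted p = 0.055 without replicate 1). Fkbp7, an ER proline isomerase, read 0.52 ± 0.15 higher with G183S than with wild type (adjusted p = 0.484), and 0.62 ± 0.14 without replicate 1, which passed (adjusted p = 0.0380).

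With all arrays, limma called 0 genes of the other lists in each comparison. Among 23 further ERAD genes, 1, 1 and 2 had an unadjusted p under 0.05 in the 3 comparisons, in the order used above, where the shares over all genes were 15.9%, 11.3% and 9.48%. The lead values were those of the ubiquitin-conjugating enzyme Ube2j1 (-0.18 with wild type, -0.20 with G183S), Faf2 (-0.24 with wild type), Marchf6 (0.15 with G183S), and, for G183S against wild type, Rnf139 (0.35) and Ube2g2 (0.57). Without G183S replicate 1, Ube2g2 passed in that comparison (0.79 ± 0.12, adjusted p = 0.0134) and in wild type against empty vector (-0.47, adjusted p = 0.0496). Of 25 further translocation, signal peptidase and glycosylation genes, 5, 2 and 4 had an unadjusted p under 0.05. They were led by Srp68 (-0.26) and Tram1 (-0.28) with wild type, Magt1 (0.29) and Sec63 (0.17) with G183S, and Tram1 (0.25) and Dad1 (0.31) between the Pax5 groups. Without replicate 1 limma called 1 of them, Sec62, higher with G183S than with wild type, where it called 5.58% of all genes.

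Transport from the ER to the Golgi was the list with the most uneven direction. Its 29 measured genes had a median of -0.13 with wild type (all genes 0.01), 13 of them lay below the controls without overlap and 0 above, and 10 had an unadjusted p under 0.05. Over all genes, 12.5% lay below and 11.5% above without overlap and 15.9% had such a p. With G183S the median was -0.06, with 7 genes below and 0 above (6.56% and 5.02% of all genes). Kdelr3, a receptor that returns escaped ER proteins, had -0.57 ± 0.15 with wild type (limma adjusted p = 0.095). Without G183S replicate 1 it passed (adjusted p = 0.0469), as did Sec23a, also lower. Arfgap3 and Golga2, both of the Golgi, had -0.26 and -0.27 with wild type and -0.23 and -0.25 with G183S. Mcfd2, a cargo receptor subunit, was 0.33 higher with G183S than with wild type, and Tmed2, a coat-vesicle cargo receptor, 0.17 higher. Without replicate 1 Mcfd2 passed in that comparison (0.41, adjusted p = 0.0454), as did Bet1, also higher. Sec62, Sec23a and Bet1 are named for these calls alone, after their values were seen.

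Among 15 other regulators of the unfolded protein response, each comparison had 1 gene at an unadjusted p under 0.05 (all genes 15.9%, 11.3% and 9.48%). Ddit3, which encodes the stress factor CHOP, read 10.56, 10.38 and 10.15 with empty vector, 8.33, 9.38 and 10.27 with wild type, and 9.50, 10.54, 10.83 and 10.74 with G183S. The wild-type arrays varied widely (SD 0.97), and replicate 3 lay within the control range. The difference was -1.04 ± 0.46 (SE; limma adjusted p = 0.308) for wild type against empty vector and 1.08 ± 0.43 (adjusted p = 0.508; 1.38 and adjusted p = 0.065 without G183S replicate 1) for G183S against wild type. Creb3 differed by -0.23 with wild type, Creb3l2 by -0.51 with G183S, and Atf6b by -0.43 between G183S and wild type. Of the 9 plasma-cell markers limma called 0 in each comparison. At an unadjusted p under 0.05 there were 1, 3 and 3 of them (all genes 15.9%, 11.3% and 9.48%). The lowest were Sdc1 (-1.14) and Tnfrsf17 (-2.08) with G183S (limma adjusted p = 0.119 for both). Without replicate 1 both passed, at -1.4 (limma adjusted p = 0.0168) and -2.50 (adjusted p = 0.0246), where 1.48% of all genes did. Tnfrsf17, Prdm1 and Irf4 then passed as lower with G183S than with wild type (-1.72, -0.73 and -0.83, limma adjusted p = 0.0413, 0.0241 and 0.0209). In that comparison 5.58% of all genes passed. Against empty vector, Irf4 and Prdm1 read 0.58 and 0.36 higher with wild type (limma adjusted p = 0.323 and 0.580), and Tnfrsf17 -0.78. With G183S, Irf4 and Prdm1 differed from empty vector by -0.01 and -0.11 (-0.25 and -0.37 without replicate 1). The part of the plasma-cell markers in the values of the ER genes was not tested.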

How the data were processed

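RNA from 10 cultures of J558 cells was amplified from 100 ng and hybridised to Affymetrix whole-transcript arrays. The authors deposited 1 log2 value per probe set and array. Per the submitters' processing notes, RMA and Partek were used, without version or role. Since RMA gives all arrays the same distribution, it hides any shift common to most genes. No source used here names a genome build or scan batch. Of 34760 probe sets, 21640 had 1 gene symbol, 1321 had several and 11799 had no entry. Through gene identifiers, 21553 matched RefSeq and 0 symbols changed. For 954 genes with over 1 probe set, 2 of them members (Pdia4 and Sec61b), the one with the highest mean was used, which left 19937 genes.

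Groups came from the labels. A single limma fit (version 3.58.1, R 4.3.3) held all 10 arrays and estimated 1 mean per group. Variances were moderated, with 7 residual degrees of freedom and a prior worth 2.88. Benjamini-Hochberg adjustment covered all 19937 genes. Genes at a two-sided adjusted p under 0.05 were called. Nothing was filtered. The fit was tested on simulated independent arrays, with planted changes larger than the difference of any member. Changes as small as those of the members were not simulated. Tables and figures used Python 3.11.15 (numpy 2.4.6, pandas 2.3.3, matplotlib 3.10.9).

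The members, roles, further lists, motifs and alternatives were chosen with earlier results of these data known. All 34 members are named; full statistics go to called members and, per comparison, the 5 with the smallest p. Of other lists, Xbp1, called genes and the 2 genes with the smallest p are named. Promoter windows are those of RefSeq (GRCm38.p6); protein sequences were not analysed here. The number of arrays limits the precision.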

Additional observations from a re-analysis of the deposited data

Results flagged for a closer look

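With 4 G183S arrays, 1 value can be tested for standing apart from the other 3 by its gap to the nearest, divided by the whole range (Dixon's test at 95%). This was met by 2 members of 34 (5.88%), fewer by share than among all genes (1487 of 19937, 7.46%). About 1 group in 20 is picked out by chance.

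Derl2, a derlin of ERAD, was low in G183S replicate 1 at 10.454, with 11.04, 11.14 and 11.03 in the others (ratio 0.849). Without that array its difference from wild type was 0.43 in place of 0.27. Sec11c, a catalytic subunit of the signal peptidase, was low in G183S replicate 2 at 11.694, with 11.95, 11.93 and 11.95 in the others (ratio 0.910).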

How the results depend on the processing

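Settings tried were each array left out, the 2 groups alone, a replicate block, array weights, a variance trend, median centring, the mean of a gene's probe sets, dim genes left out and no moderation. Over 288 combinations of a named gene and a setting, 262 kept their direction and their side of the threshold and 18 passed it newly. Another 8 (all Ero1b, wild type against empty vector) lost it and 0 reversed. Many of these settings cannot change a difference, such as a variance trend, no moderation or leaving out an array of the group not compared. The absence of reversals was therefore partly fixed in advance. The genes were also chosen for a small p in these same data. The median difference over the members moved by less than its SD between arrays (0.083) in each, but that SD is larger than each main median. Between wild type and empty vector the median ran from -0.086 (without empty-vector replicate 3) to 0.0088 (without wild-type replicate 3). Its sign there changed when wild-type replicate 3 was left out. For wild type against empty vector, members called lower numbered 1 with the 2 groups alone and 4 with array weights, and 0 to 2 with an array left out; 3 were called higher with array weights. For G183S against empty vector, array weights called 3 higher and 2 lower, and leaving out an array gave 0 to 1 lower. For G183S against wild type, array weights called 5 higher and 3 lower, and leaving out an array gave 0 to 4 higher and 0 to 1 lower. The weights ran from 0.335 (G183S replicate 1) to 3.479 (wild-type replicate 2), with 0.453 and 0.565 for wild-type replicates 1 and 3. With array weights the wild-type mean thus rests mostly on replicate 2.

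Genes called in all for wild type against empty vector numbered 374, with 587 for the 2 groups alone, 228 with a replicate block, 2576 with array weights, 4 without moderation and 6 to 1033 with an array left out. For G183S against empty vector the count was 62, with 10, 1449 and 6 for the block, the weights and no moderation, and 8 to 295 with an array left out. For G183S against wild type it was 0, with 2, 2752 and 1, and 0 to 1113. The cause was not tested. With the replicate block no member was called, and Ero1b had adjusted p = 0.0742 (0.120 without moderation). Same-numbered wild-type and G183S arrays correlated by 0.507, -0.162 and 0.455 (replicates 1, 2 and 3) in their deviations from group means. Pairs that include empty vector lay between -0.162 and 0.108. Wild-type and G183S replicates 1 and 3 thus shared part of their deviations, and what they share was not tested. The main fit has no replicate block because the design text calls the replicates independent. Few arrays, and values without a background signal, limit what small changes can be seen.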
